A study of Mus musculus with 9 samples.

Results

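The enzymes that make prostaglandins, thromboxane and leukotrienes were followed in RNA-seq counts of macrophages sorted from mouse liver as F4/80+CD11b+Gr1low cells. The group was defined by name, as the rows of the count table with the symbols Pla2g4a, Alox5, Alox5ap, Lta4h, Ltc4s, Ptgs1, Ptgs2, Ptges, Hpgds and Tbxas1. All 10 symbols were found among the 23413 genes of the table, and all 10 had enough counts to be tested. Male C57BL/6 mice were fed from 5 weeks of age for 8 weeks with normal chow (NC, 10 kcal% fat) or a high-fat diet (HFD, 60 kcal% fat). HFD-fed mice received injections of vehicle or of 2 mg/kg DPI (diphenyleneiodonium, a flavoenzyme inhibitor that the study uses as an agonist of the receptor GPR3) every 5 days from week 3. The labels give no treatment for NC mice, so the comparison of vehicle-treated HFD-fed mice with NC mice covers diet and injections together. There were 2 libraries from NC mice, 3 from HFD + vehicle mice and 4 from HFD + DPI mice, each titled as a single mouse. A protocol field of the labels also mentions purified cells exposed to DPI at 500 nM for 24 h, which conflicts with the injections described in the design text and in the study's methods.

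Eicosanoids are short-lived lipid signals made from arachidonic acid, which cytosolic phospholipase A2 (Pla2g4a) frees from membranes. In the leukotriene branch, 5-lipoxygenase (Alox5) works with its activating protein FLAP (Alox5ap) to form leukotriene A4, which LTA4 hydrolase (Lta4h) turns into leukotriene B4 and LTC4 synthase (Ltc4s) into the first cysteinyl leukotriene. In the prostanoid branch, the cyclooxygenases COX-1 (Ptgs1) and COX-2 (Ptgs2) form prostaglandin H2, from which Ptges makes prostaglandin E2, Hpgds prostaglandin D2 and Tbxas1 thromboxane A2. COX-2 and Ptges are known as inducible partners in activated macrophages, and COX-1 as the more constitutive enzyme of platelets and endothelium.

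Library totals lay between 3534325 and 15585775 counts, with 27% to 44.5% of each total on the ribosomal RNA precursor Rn45s. The floor of detection was set at 3 counts, which corresponded to 0.184 to 1.02 CPM (counts scaled by TMM factors to a common total), and this floor covers counting error only, since amplified reads are not independent molecules. Rank correlations of counts were 0.838 to 0.887 between libraries of the same HFD group and 0.74 between the NC libraries, so the NC group is the least uniform. The 10 general macrophage genes summed to 15805 to 44514 CPM, of which Lyz2, also made by monocytes and neutrophils, held 13980 to 42930 CPM. Among the others, Csf1r had 385 to 751 CPM, F4/80 (Emr1) 55 to 142 CPM and Mertk 1.86 to 15.1 CPM. Among the listed markers of Kupffer cells (KCs), the surface genes Marco, Vsig4, Timd4 and Clec4f were nearly absent from most libraries, although the labels name the cells so. Other markers of the list had counts in every library, among them Slc40a1 (2 to 22.4 CPM), Cd163 (1.02 to 13.5 CPM), C1qa (19.8 to 124 CPM) and C1qb (49.3 to 467 CPM). Marco had no count in 8 of 9 libraries, Vsig4 had 49 counts or fewer, and Clec4f had 0 and 244 counts for NC, 42, 0 and 0 for HFD + vehicle and 219, 6, 4 and 6 for HFD + DPI. The libraries NC 2 and DPI 1 therefore held most of the Clec4f counts, and several results below were recomputed without them. Summed levels of the other marker lists were 507 to 1248 CPM for Kupffer cells (14 genes), 4033 to 8384 for monocytes (11), 251 to 544 for dendritic cells (10), 89.2 to 473 for T and NK cells (11), 19 to 451 for B cells (7), 35.1 to 178 for eosinophils (8), 28 to 342 for mast cells and basophils (10) and 752 to 1779 for hepatocytes (10), mostly from Hp (529 to 1437). Hdc held 9.13 to 311 CPM of the mast cell and basophil sum. In sorted bulk cells, a smaller number of cells of a type cannot be told apart from less RNA per cell.

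The 10 genes differed in level over several orders of magnitude. Per kb of transcript (CPM divided by transcript length), Alox5ap stood first in each library, with a median of 797 CPM per kb, and took 90% to 96% of the summed level of the 10 genes. Lta4h followed with a median of 18.2 CPM per kb, Tbxas1 with 11.8 and Ptgs2 with 10.2, 3 neighbours whose values over the 9 libraries overlap. Alox5, which needs FLAP for its activity in cells, had a median of 4.34 CPM per kb, far below that of FLAP. Pla2g4a had 2.98, Ltc4s 2.05 and Hpgds 1.23 CPM per kb, and the lowest medians were those of Ptgs1 with 0.232 and Ptges with 0.153. Lengths were those of the longest coding transcript in GENCODE M21, from 0.649 kb for Ltc4s to 4.45 kb for Ptgs2, so ratios between genes are approximate.

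**Figure D1:**
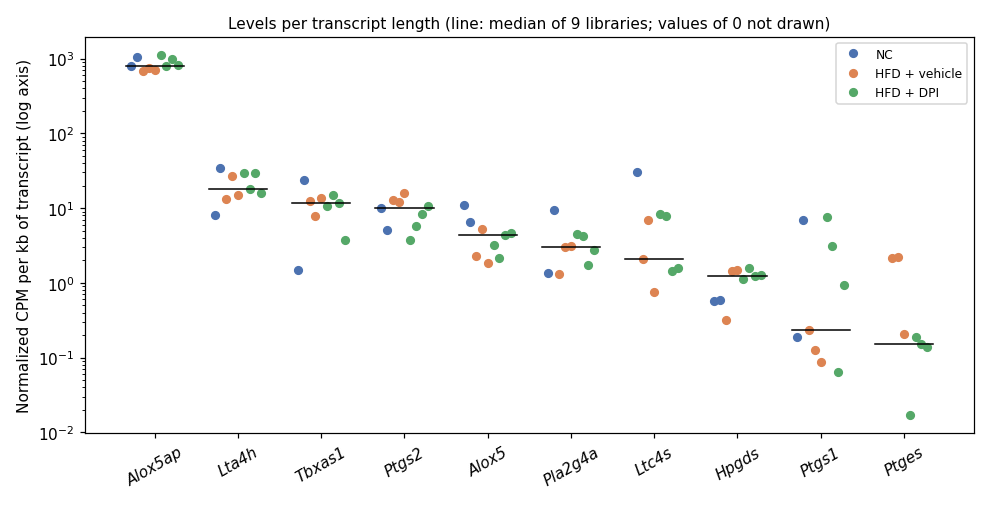
Normalized CPM per kb of transcript (log axis) of the 10 enzyme genes, ordered by their median over the 9 libraries (black line), with 1 point per library coloured by group. Alox5ap (median 797) stood above all others in each library, and the lowest genes, Ptgs1 and Ptges, had the widest spread on this axis.

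The first question was how many of these genes differed between the groups. The study's threshold, an unadjusted p under 0.05 from edgeR with at least a 2-fold change, was met by 3 of 10 genes for HFD + vehicle against NC (Ptges higher, Alox5 and Ptgs1 lower), where 11.7% of the 11393 genes tested met it. For HFD + DPI against HFD + vehicle it was met by 2 of 10 (Ptgs1 higher, Ptges lower) against 2.84% of all genes, and for HFD + DPI against NC by 1 of 10 (Alox5, lower) against 9.29%. Ptges passed the filter on low counts only through the vehicle libraries, and Ptgs1 only through NC and DPI libraries, where each was high. Their places in the first and second counts are therefore a description and no support for a difference. After Benjamini-Hochberg adjustment over all genes, no member passed 0.05 in edgeR's quasi-likelihood test in any of these comparisons, where 0.0614%, 0% and 0.00878% of all genes did. An unadjusted p under 0.05, whatever the fold, was found for 3, 3 and 1 of the 10 in the same order, beside 13%, 4.13% and 10.7% of all genes. DESeq2 gave an adjusted p under 0.05 to 1 member, Ptges for HFD + vehicle against NC (adjusted p = 0.0307), and to 2.75%, 0.0176% and 1.97% of all genes in these comparisons.

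Counted by libraries that do not overlap, 4 of 10 genes were apart between HFD + vehicle and NC, against 27.5% of all genes tested. This number was 3 of 10 against 5.85% for DPI and vehicle, and 3 of 10 against 20.2% for DPI and NC. Ptges is in each of these counts although it passed the filter only through the vehicle libraries, and its DPI and NC values both lay about the floor. The counts are therefore a description. The median log2 fold change of the 10 genes was -0.29 for HFD + vehicle against NC, 0.29 for DPI against vehicle and -0.19 for DPI against NC, beside 0.03, 0.04 and 0.04 over all genes tested. The vehicle libraries belong to both of the first comparisons and the NC libraries to the first and the last, so their values are set side by side and not correlated.

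**Figure D2:**
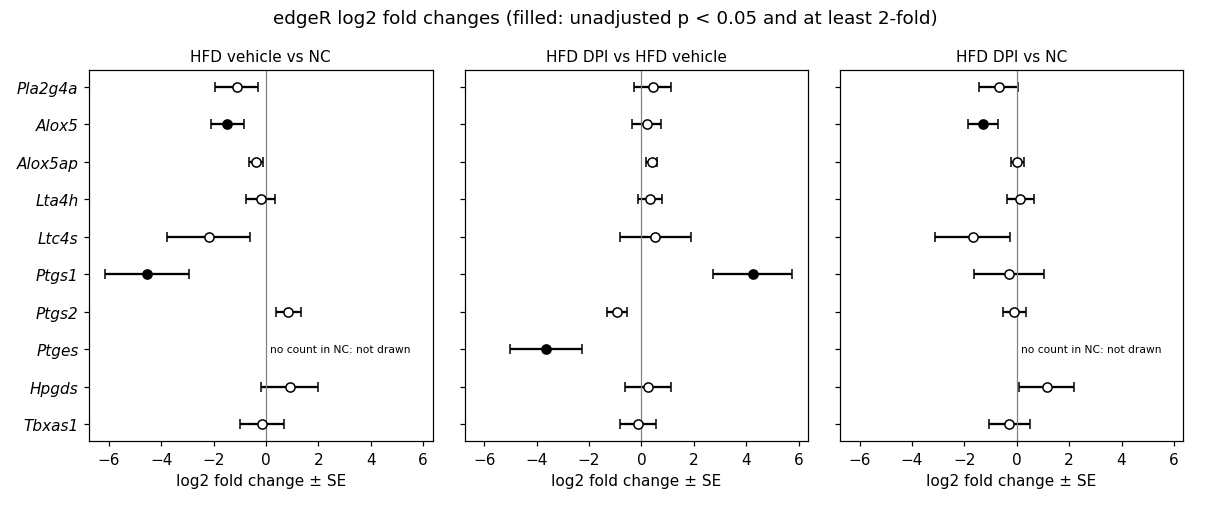
log2 fold change ± standard error of each enzyme gene from edgeR in the 3 comparisons, with filled points for genes past an unadjusted p of 0.05 and a 2-fold change. Filled points are Alox5 and Ptgs1 in the first panel, Ptgs1 and Ptges in the second and Alox5 in the third, and Ptges is not drawn against NC, where it had no counts.

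Ptgs2, the inducible cyclooxygenase gene, was highest in HFD + vehicle. Its level was 45.3 and 22.6 CPM for NC, 57.9, 54.4 and 70.9 CPM for HFD + vehicle and 16.5, 25.8, 37.5 and 47.9 CPM for HFD + DPI. All 3 vehicle libraries lay above both NC libraries and above all 4 DPI libraries, while the NC and DPI ranges overlap. Relative to vehicle, DPI gave a log2 fold change of -0.93 (standard error, SE, 0.39, unadjusted p = 0.0323, adjusted p = 0.999 from edgeR), just short of a 2-fold change. For vehicle against NC it was 0.85 (SE 0.48, adjusted p = 0.478 from edgeR). Leaving out Vehicle 2, DPI 3 or DPI 4 took the change with DPI past 2-fold, at -1.01, -1.02 and -1.20. Without any other single library it did not meet the threshold, DPI 1 with the lowest DPI value included. With NC 2 and DPI 1 both left out, the change with DPI was smaller, as given below. Of the 9 libraries left out in turn, NC 1 was the only one without which the change against NC passed the threshold, at 1.44.

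Ptges, the gene of the inducible prostaglandin E synthase, had 0 and 0 counts for NC, 35, 45 and 3 for HFD + vehicle and 1, 2, 3 and 5 for HFD + DPI. In CPM these were 7.77, 8.16 and 0.743 for HFD + vehicle and 0.0613, 0.679, 0.557 and 0.51 for HFD + DPI. The vehicle libraries 1 and 2 thus carried nearly all the counts of this gene, and Vehicle 3 was at the floor, next to the DPI libraries. Ptges passed the filter on low counts only through Vehicle 1 and Vehicle 2, so its p-values below are a description and no support for a difference. Ptges was at least 10-fold higher with vehicle than in NC when NC is set to the mean floor of its libraries (unadjusted p = 0.0063, adjusted p = 0.241 from edgeR). Between DPI and vehicle the fitted log2 fold change was -3.65 (SE 1.37, unadjusted p = 0.0203, adjusted p = 0.999 from edgeR), with 3 of the 4 DPI libraries at or under the floor. From 83 counts with vehicle and 11 with DPI, the pooled ratio of vehicle to DPI was 18.5 (95% exact Clopper-Pearson interval 9.82 to 38.5, for counting error only). This ratio rests on the depth of DPI 1, and without that library it was 10.7 (interval 5.54 to 23.2). No fold is given for DPI against NC, since both groups lay about the floor. Without Vehicle 1, or without Vehicle 2, too few counts remained for Ptges to be tested, and with counts thinned to the smallest library total its change with DPI no longer passed 0.05 (log2 fold change -3.01). In a fit of DPI and vehicle alone Ptges was not tested for the same reason.

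Ptgs2 and Ptges were thus the members with their highest group mean in HFD + vehicle and a lower one in both other groups. Neutrophil markers, with 11 of 12 in the table and none at 0 throughout, summed to 1478 and 3357 CPM for NC, 2602, 3466 and 4020 CPM for HFD + vehicle and 1178, 957, 3968 and 5715 CPM for HFD + DPI. The Ptgs2 level within the DPI group was lowest in the pair of libraries with the smallest neutrophil sums, while in NC the library with more neutrophil RNA had less Ptgs2. The cells were gated for low Gr1, and the part of neutrophils in the Ptgs2 and Ptges values was not tested.

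**Figure D3:**
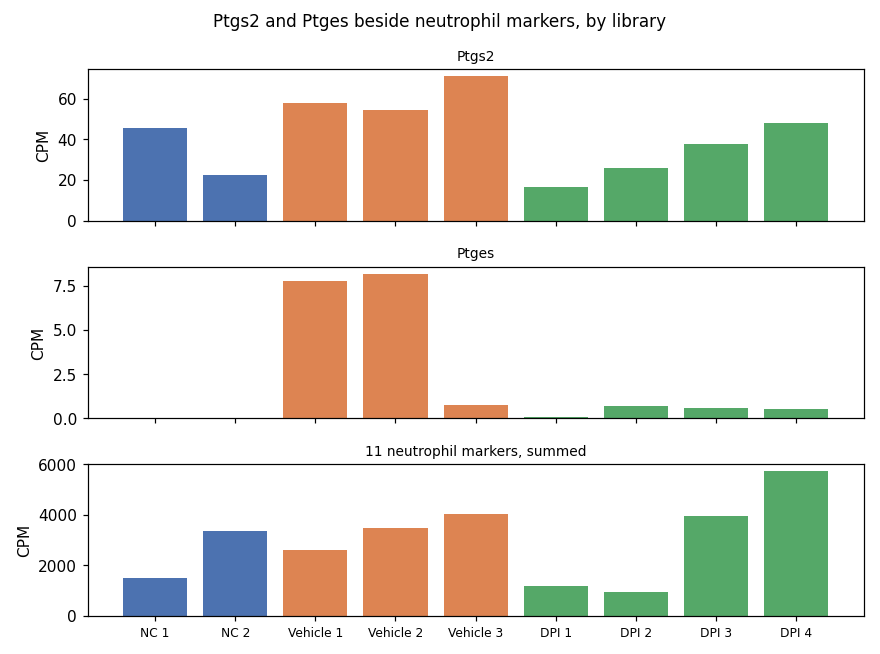
Bars give normalized CPM of Ptgs2, of Ptges and of 11 neutrophil markers summed, for each of the 9 libraries coloured by group, each axis starting at 0. Ptgs2 was highest in the vehicle libraries (54.4 to 70.9), Ptges was highest in Vehicle 1 (7.77) and Vehicle 2 (8.16), and the neutrophil sum was highest in DPI 4 (5715).

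The sequences before the start sites of both genes are shown because they shared this pattern, together with that of Ptgs1, which was lowest in HFD + vehicle. They come from RefSeq on GRCm38.p6 and cover 250 bases up to the annotated start, written 5′ to 3′ on the strand of the gene, with capitals for the motifs named below.
Ptgs2 (chr1:150099781-150100030, plus strand): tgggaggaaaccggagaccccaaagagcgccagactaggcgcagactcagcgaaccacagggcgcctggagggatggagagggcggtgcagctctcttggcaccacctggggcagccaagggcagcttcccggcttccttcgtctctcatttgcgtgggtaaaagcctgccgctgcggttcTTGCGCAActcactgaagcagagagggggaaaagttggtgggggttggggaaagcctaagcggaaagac
Ptges (chr2:30903298-30903547, minus strand): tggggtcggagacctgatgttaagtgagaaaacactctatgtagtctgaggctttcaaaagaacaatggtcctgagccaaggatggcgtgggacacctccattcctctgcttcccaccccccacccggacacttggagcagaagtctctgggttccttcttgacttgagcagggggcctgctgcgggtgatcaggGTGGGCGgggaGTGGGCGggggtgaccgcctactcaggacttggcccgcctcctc
Ptgs1 (chr2:36230176-36230425, plus strand): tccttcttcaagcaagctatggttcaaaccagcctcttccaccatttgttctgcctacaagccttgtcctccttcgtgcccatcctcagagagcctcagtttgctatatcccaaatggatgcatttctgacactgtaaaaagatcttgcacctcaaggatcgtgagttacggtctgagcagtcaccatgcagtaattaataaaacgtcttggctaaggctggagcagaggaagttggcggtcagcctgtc

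A window of 300 bases, from 250 before to 50 after the start, was searched on both strands for 5 motifs in 9 of the 10 genes (10 windows, since Pla2g4a has 2 starts; no entry for Alox5ap). The Ptgs2 window held the C/EBP palindrome TTGCGCAA at -69, found in 0.183% of the 32841 promoters of the reference, the cAMP response element half-site CGTCA at 14, found in 20.8%, and the E-box CACGTG at 17, found in 7.15%. The half-site and the E-box overlap in the short stretch after the start, ccactaCGTCACGTGgagtccgct (chr1:150100038-150100061). The Ptges window held the EGR core GTGGGCG at -55 and again at -44, a motif found in 7.97% of promoters. None of the 5 motifs was in the Ptgs1 window or in those of the other members, and the κB site, present in 4.51% of promoters, was in none of the 10 windows. A match is a run of letters and says nothing about binding in these cells.

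Ptgs1, the gene of COX-1, was lowest in HFD + vehicle, with a wide spread in both other groups. Counts were 3 and 108 in NC, 3, 2 and 1 for HFD + vehicle and 358, 26, 1 and 26 for HFD + DPI. In CPM these were 0.546 and 20.2 in NC, 0.666, 0.363 and 0.248 for HFD + vehicle and 21.9, 8.83, 0.186 and 2.65 for HFD + DPI. No vehicle library exceeded the floor, and in each of the other groups 1 library did not exceed it either, so the groups overlap. From 111 pooled counts in NC and 6 with vehicle, the ratio of NC to vehicle was 24 (95% exact Clopper-Pearson interval 10.7 to 66.7, for counting error only), and the fit gave an unadjusted p of 0.0144 (adjusted p = 0.289 from edgeR). From 411 pooled counts with DPI, the ratio of DPI to vehicle was 27.9 (interval 12.7 to 76.6). The fit of all libraries gave this change an unadjusted p of 0.0142 (adjusted p = 0.999 from edgeR), and without DPI 1 the pooled ratio was 6.85 (interval 2.95 to 19.5). Both calls rest on single libraries. Ptgs1 also passed the filter on low counts only through NC and DPI libraries, where it was high, so these p-values are no support for a difference. Without NC 2 no library of NC or vehicle exceeded the floor, so no fold is given (unadjusted p = 0.868 from edgeR), and without DPI 1 the fitted log2 fold change for DPI against vehicle was 3.09 (unadjusted p = 0.065 from edgeR). DPI against NC had a log2 fold change of -0.29 (SE 1.33), which turned to a fitted 3.94 without NC 2, against the 3 counts of NC 1. In a fit of vehicle and NC alone, Ptgs1 had too few counts to be tested.

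COX-1 is also made by endothelial cells, and markers of liver sinusoidal endothelium were not even across the groups. The 10 such markers, all in the table and none at 0 throughout, summed to 231 and 422 CPM for NC, 32.4, 24.3 and 34.2 CPM for HFD + vehicle and 296, 141, 16.1 and 47.9 CPM for HFD + DPI. The order of the 4 DPI libraries was the same for this sum and for Ptgs1, and both vehicle values were low throughout, but NC 1 had a high endothelial sum with 3 counts of Ptgs1. Clec4f, picked from the 14 KC markers after its values were seen, had 45.6 CPM in NC 2 and 13.4 CPM in DPI 1, the libraries with most Ptgs1, and 9.32 CPM in Vehicle 1, which had little of it. The whole KC list did not follow Ptgs1, with sums of 507 and 631 CPM for NC, 708, 1248 and 595 CPM for HFD + vehicle and 808, 1200, 707 and 666 CPM for HFD + DPI, of which Id3 made up 136 to 918 CPM. Platelet markers were scarce, with 1.49 to 31.4 CPM summed over 10 genes and Gp6 and Tubb1 at 0 in all libraries. The cells were gated on F4/80 and CD11b, and the part of endothelial cells or KCs in the Ptgs1 differences was not tested.

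**Figure D4:**
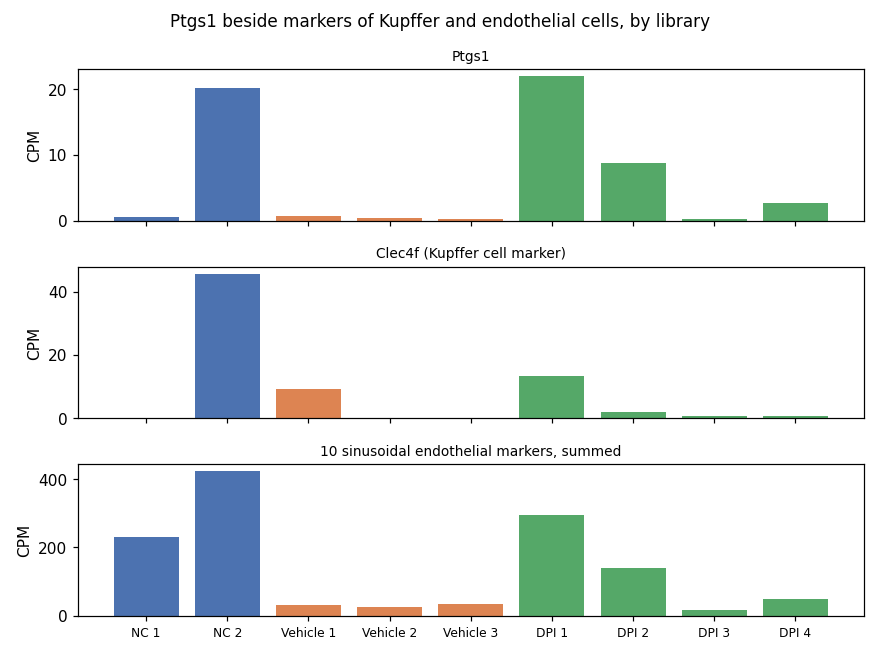
Bars give normalized CPM of Ptgs1, of the KC gene Clec4f and of 10 sinusoidal endothelial markers summed, for each of the 9 libraries coloured by group, each axis starting at 0. Ptgs1 was highest in DPI 1 (21.9) and NC 2 (20.2), and the vehicle libraries were low both in Ptgs1 and in the endothelial sum.

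The balance between the cyclooxygenases therefore differed among libraries. Per kb, Ptgs1 exceeded Ptgs2 in NC 2 and DPI 1, where the ratio of Ptgs2 to Ptgs1 was 0.721 and 0.484. The ratio was 1.88 in DPI 2 and 11.6 in DPI 4, and in the other 5 libraries Ptgs1 had 3 counts or fewer, against 202 to 300 counts of Ptgs2.

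In the leukotriene branch, Alox5 was lower in all HFD libraries than in both NC libraries. Its level was 31.3 and 18.3 CPM for NC, 6.44, 14.9 and 5.2 CPM for HFD + vehicle and 9.13, 6.11, 12.2 and 13 CPM for HFD + DPI. The highest of the 7 HFD libraries, Vehicle 2, stayed under NC 2. The log2 fold change was -1.48 for vehicle against NC (SE 0.63, unadjusted p = 0.0345, adjusted p = 0.352 from edgeR) and -1.29 for DPI against NC (SE 0.58, unadjusted p = 0.0452, adjusted p = 0.459 from edgeR). DPI and vehicle differed by 0.20 (SE 0.54), less than the spread within either group. The call against NC was lost with vehicle when NC 1, Vehicle 1 or Vehicle 3 was left out, at -1.03, -1.24 and -1.16, and in a fit of these groups alone (-1.48, unadjusted p = 0.0593 from edgeR). With DPI it was lost without NC 1, Vehicle 1, Vehicle 3, DPI 1, DPI 2 or DPI 3, at values from -1.39 to -0.84. Both calls were also lost under a replicate block, and the call with DPI was lost with no filter on low counts.

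Alox5ap, the gene of FLAP, was the steadiest member, with a ratio of highest to lowest library of 1.64. It had 995 and 1314 CPM for NC, 860, 931 and 872 CPM for HFD + vehicle and 1408, 997, 1253 and 1013 CPM for HFD + DPI. Each vehicle library lay under every NC and every DPI library, with log2 fold changes of -0.38 for vehicle against NC (SE 0.25, unadjusted p = 0.16 from edgeR) and 0.40 for DPI against vehicle (SE 0.22, unadjusted p = 0.0897 from edgeR). Neither difference met the threshold, and DPI and NC differed by 0.02 (SE 0.24). The ratio of Alox5ap to Alox5 per kb was 71.6 and 162 in NC and 141 to 378 in the 7 HFD libraries.

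The enzymes after leukotriene A4 spread most widely between the NC libraries. Lta4h had 16.6 and 69.1 CPM for NC, 27.1, 54.4 and 30.2 CPM for HFD + vehicle and 60.1, 37, 59 and 32.1 CPM for HFD + DPI. Its groups overlap in all comparisons, with log2 fold changes of -0.20, 0.34 and 0.14 (SEs 0.55, 0.46 and 0.52) for vehicle against NC, DPI against vehicle and DPI against NC. Without NC 2, Lta4h met the threshold for DPI against NC, at 1.54. Ltc4s had 0 and 106 counts for NC, 6, 25 and 2 for HFD + vehicle and 87, 15, 5 and 10 for HFD + DPI. The log2 fold change of Ltc4s for vehicle against NC was -2.20 (SE 1.57), and it was -3.17, past the threshold, without NC 1. Without NC 2 the sign turned and the threshold was met the other way. NC 1 had no count, and Ltc4s was at least 3.88-fold higher with vehicle than the floor of NC 1. DPI against NC was -1.68 with both NC libraries, -2.67 without NC 1 and at least 5.66-fold higher without NC 2, the last pair also past the threshold. Ltc4s is also known from eosinophils and mast cells, and the 8 eosinophil markers summed to 103 and 73.6 CPM for NC, 73.5, 70.4 and 59 CPM for HFD + vehicle and 164, 178, 35.1 and 113 CPM for HFD + DPI. Ear2, also detected in every library, carried most of the sum in NC and vehicle, whereas the granule gene Prg2 had 1296, 265, 2 and 468 counts for HFD + DPI and 0 to 10 counts in the other libraries. Epx had counts in DPI 1, 2 and 4 alone (151, 18 and 101). Mast cell and basophil markers summed to 75.6 and 174 CPM for NC, 155, 214 and 219 CPM for HFD + vehicle and 28, 133, 150 and 342 CPM for HFD + DPI. Hdc alone had 12.9 and 101 CPM for NC, 153, 172 and 205 CPM for HFD + vehicle and 9.13, 31.2, 121 and 311 CPM for HFD + DPI. Prss34, next in mean level, had 33 and 36.4 CPM for NC, 0, 16 and 0 CPM for HFD + vehicle and 10.2, 56.7, 5.38 and 10.8 CPM for HFD + DPI. The part of eosinophils or mast cells in the Ltc4s values was not tested.

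Pla2g4a, whose product starts both branches, had 3.82 and 27.1 CPM for NC, 3.77, 8.52 and 8.92 CPM for HFD + vehicle and 13.1, 12.2, 5.01 and 7.86 CPM for HFD + DPI. The NC libraries enclosed nearly the whole range of the others, and no comparison met the threshold (log2 fold changes -1.12, 0.43 and -0.70, SEs 0.81, 0.70 and 0.76). Leaving out NC 1 took Pla2g4a past the threshold against NC, at -1.92 with vehicle and -1.49 with DPI, and leaving out NC 2 turned both signs, to 0.91 and 1.34.

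The terminal synthases of prostaglandin D2 and thromboxane showed no difference past the threshold. Hpgds had 2 and 2.05 CPM for NC, 1.11, 5.08 and 5.2 CPM for HFD + vehicle and 3.86, 5.43, 4.27 and 4.39 CPM for HFD + DPI. All 4 DPI libraries lay above both NC libraries, with a log2 fold change of 1.13 (SE 1.05, unadjusted p = 0.3 from edgeR) on 11 counts in each NC library. Tbxas1 had 2.91 and 47.1 CPM for NC, 24.4, 15.8 and 27.3 CPM for HFD + vehicle and 21.5, 29.5, 23.6 and 7.55 CPM for HFD + DPI. Its NC libraries lay on either side of all others, and without NC 2 its log2 fold changes against NC turned from -0.15 and -0.29 to 2.96 and 2.83, past the threshold (unadjusted p = 0.0042 and 0.00501 from edgeR, with the lone NC library assumed to vary like the other groups).

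**Figure D5:**
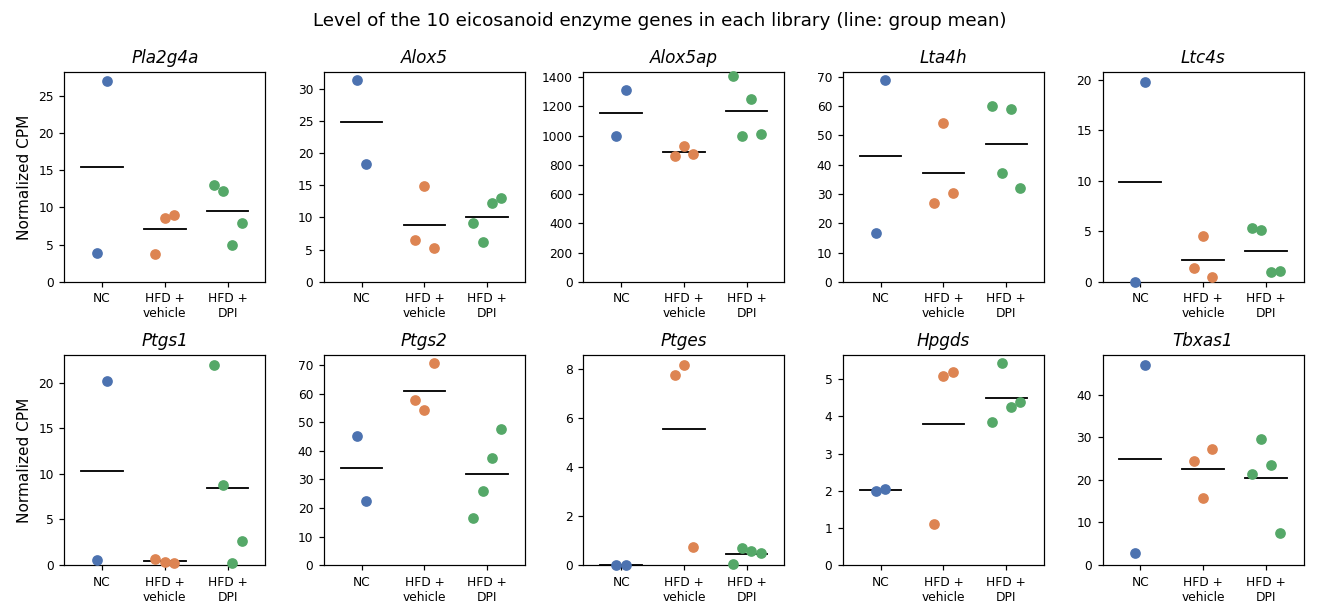
Normalized CPM of the 10 enzyme genes on linear axes from 0, with 1 point per library and a line at the group mean. Alox5 was lower in all 7 HFD libraries than in NC, Ptgs2 was highest in the 3 vehicle libraries, and the 2 NC points lay far apart for Pla2g4a, Lta4h, Ltc4s, Ptgs1 and Tbxas1.

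A few libraries held most of the extreme values. NC 2 had the highest value of 4 of the 10 members (Pla2g4a, Lta4h, Ltc4s and Tbxas1), DPI 1 of 2 (Alox5ap and Ptgs1), and NC 1 alone had the lowest value of 3 (Lta4h, Ltc4s and Tbxas1), as did Vehicle 1 of 3 others (Alox5ap, Hpgds and Pla2g4a), while both NC libraries had no count of Ptges. With NC 2 and DPI 1 both left out, a choice made after seeing the data, Ptges and Alox5 still met the threshold for vehicle against NC (log2 fold changes 7.92, a fitted value, and -1.78), joined by Tbxas1 (2.97), and Ptgs1, at or under the floor in both groups, did not. For DPI against vehicle, Ptges (-3.24) met it and Ptgs1 (3.10) and Ptgs2 (-0.72) did not. For DPI against NC, Alox5 (-1.54), Lta4h (1.39) and Tbxas1 (2.80) met it.

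On GRCm38, Ptgs2 lies on chromosome 1 from 150100031 to 150108227 and Pla2g4a close by from 149829618 to 149961290 on the other strand. Ptges (30889471 to 30929863) and Ptgs1 (36230426 to 36252272) are on chromosome 2, Alox5ap is on chromosome 5 (149264767 to 149288153), and Tbxas1 (38875404 to 39084585), Hpgds (65117293 to 65144908) and Alox5 (116410077 to 116461178) are on chromosome 6. The coding transcript of Ptges starts at 30903297, just after the printed sequence, and the longer gene span comes from a non-coding transcript. Lta4h is on chromosome 10 (93453411 to 93484875) and Ltc4s on chromosome 11 (50236461 to 50238616). All are annotated as protein coding, with 3 exons in Ptges to 19 in Lta4h in the longest coding transcript. Antisense or overlapping genes are annotated within 7 of the 10 (not within Alox5, Lta4h or Ptgs2), and the sources used here do not state whether counting used strand, so reads of such pairs may not have been parted.

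Other genes of eicosanoid metabolism were taken from a list of 67 further genes in the table, of which 47 could be tested. Of these 47, 6 met the threshold for vehicle against NC (1 higher, 5 lower), 5 for DPI against vehicle (3 higher, 2 lower) and 2 for DPI against NC (1 higher, 1 lower), against the 11.7%, 2.84% and 9.29% of all genes given above. None passed the adjustment in edgeR's quasi-likelihood test, and 6, 6 and 3 had an unadjusted p under 0.05, beside the 13%, 4.13% and 10.7% of all genes. Their median log2 fold changes were 0.07, 0.08 and -0.10. Ephx1, with no count in NC, and Ptgis, with none with vehicle, passed the filter on low counts only through groups where they were high. The places of these genes in the counts above are a description and no support for a difference. Of the 20 genes not tested, 6 had no count in any library. The most abundant genes of the list were Pla2g7, which degrades platelet-activating factor, with a mean of 388 CPM over the 9 libraries, Cotl1, whose product binds 5-lipoxygenase, with 237 CPM, Cyp4f18, which inactivates leukotriene B4, with 165 CPM, Ptges3, a co-chaperone with prostaglandin E synthase activity, with 128 CPM, and Hpgd, which inactivates prostaglandins, with 79.9 CPM. None of these met the threshold in any comparison.

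Among the enzymes that inactivate or convert eicosanoids, Ptgr2, a prostaglandin reductase, had the smallest p of the list. It had 38.8 and 31.2 CPM for NC, 2.89, 4.53 and 5.2 CPM for HFD + vehicle and 15, 9.17, 4.27 and 7.14 CPM for HFD + DPI. All HFD libraries lay below both NC libraries, with log2 fold changes of -3.05 for vehicle (SE 0.64, adjusted p = 0.0972 from edgeR) and -1.97 for DPI (SE 0.57, adjusted p = 0.267 from edgeR). Cyp4f16, a cytochrome P450 of the same family as Cyp4f18, had 78.1 and 61.6 CPM in NC and 17.1, 33 and 24.5 CPM with vehicle, beside 55, 36.3, 32.8 and 20.7 CPM with DPI. Vehicle against NC gave a log2 fold change of -1.49 (SE 0.45, adjusted p = 0.23 from edgeR). Ephx1, an epoxide hydrolase, had no count in NC, 53, 44 and 12 for HFD + vehicle, and 33, 11, 16 and 49 for HFD + DPI, at least 13.7-fold higher with vehicle and at least 6.2-fold higher with DPI (adjusted p = 0.115 and 0.172 from edgeR). It passed the filter on low counts only through the HFD libraries, where it was high, so these values are no support for a difference. Hepatocyte markers summed to 1430 and 1648 CPM for NC, 893, 1309 and 883 CPM for HFD + vehicle and 1779, 752, 979 and 1147 CPM for HFD + DPI, so that the NC sums lay above those with vehicle and within those with DPI. Alb, chosen after its values were seen, had 56.1 and 107 CPM for NC, 21.8, 5.44 and 9.66 CPM for HFD + vehicle and 19.6, 31.6, 11.9 and 17 CPM for HFD + DPI. The part of hepatocytes, or of the endothelial cells described above, in the Ptgr2, Cyp4f16 and Ephx1 values was not tested.

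Of the other synthases, 3 were lower with vehicle than in NC and higher with DPI than with vehicle. Akr1b3, an aldose reductase that also forms prostaglandin F2α, had 32.8 and 44.3 CPM for NC, 10.2, 14.5 and 14.1 CPM for HFD + vehicle and 31.3, 29.2, 46 and 8.88 CPM for HFD + DPI (log2 fold changes -1.57 and 1.15, SEs 0.57 and 0.50). Alox15, the 12/15-lipoxygenase, had 2.19 and 40.3 CPM for NC, 5.77, 2.9 and 0.248 CPM for HFD + vehicle and 28.4, 18, 9.46 and 4.9 CPM for HFD + DPI (log2 fold changes -2.82 and 2.34, SEs 1.13 and 1.02). Alox15 is also known from eosinophils, whose granule genes Prg2 and Epx were present in DPI 1, 2 and 4 as given above, and their part in the Alox15 values was not tested. Ptgis, the prostacyclin synthase known from endothelium, had 0 and 29 counts for NC, none with vehicle and 48, 19, 14 and 0 for HFD + DPI. It was at least 4.16-fold lower with vehicle than in NC and at least 4.6-fold higher with DPI than with vehicle. Ptgis passed the filter on low counts only through NC and DPI libraries, where it was high, so its calls are a description. The sinusoidal endothelial sum given beside Ptgs1 was also lower with vehicle (24.3 to 34.2 CPM) than in NC (231 and 422 CPM), and its part in the Ptgis values was not tested. Without NC 2, the change of Alox15 against NC turned to 0.48 and Ptgis had no count in either group. The calls of these 3 genes for DPI against vehicle were also lost without single libraries, Akr1b3 without any one of the vehicle libraries or without DPI 1, 2 or 3 (0.83 to 1.24), Alox15 without Vehicle 2, Vehicle 3, DPI 1 or DPI 2 (1.81 to 2.32) and Ptgis without any one of them or without DPI 2 (fitted values). Against NC, calls were lost without NC 2 or Vehicle 1 for Akr1b3 (-1.31 and -1.38), without Vehicle 2 or Vehicle 3 for Alox15 (-2.80 and -2.25), and without any one of the vehicle libraries for Ptgis.

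Among the receptors, 10 of 17 could be tested, and the 2 that met the threshold for DPI against vehicle were both lower. Cmklr1, the chemerin receptor, which has also been described as a receptor of resolvin E1, had 39.9 and 5.42 CPM for NC, 47.1, 18.3 and 83 CPM for HFD + vehicle and 8.4, 18.3, 12.6 and 18.9 CPM for HFD + DPI (log2 fold change -1.77, SE 0.62, unadjusted p = 0.0135 from edgeR). Ptgir, the prostacyclin receptor, had 27.7 and 9.52 CPM for NC, 36, 12.7 and 35.2 CPM for HFD + vehicle and 9.32, 12.9, 11.7 and 9.49 CPM for HFD + DPI (log2 fold change -1.37, SE 0.50, unadjusted p = 0.0173 from edgeR). In both, 1 vehicle library lay within the DPI range. The call for Cmklr1 was lost without Vehicle 3 (-1.18) and that for Ptgir without Vehicle 1 (-1.14) or Vehicle 3 (-1.17).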

How the data were processed

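RNA-seq of F4/80+CD11b+Gr1low liver macrophages was analysed in 9 libraries. The authors aligned reads to mm10 and deposited a table of raw gene counts (whole numbers, not normalized). Per the study's methods, counts came from bowtie2 and RSEM, while the submitters' processing notes name TopHat2 and edgeR. The gene annotation is not given in the sources used here. All columns of the table were mapped to samples by their labels.

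Genes were filtered with filterByExpr, scaled by TMM and fitted over the 3 groups in edgeR 4.0.16 (R 4.3.3) with glmQLFit and glmQLFTest, and p was adjusted over the 11393 genes tested. The standard error is the size of the log2 fold change divided by the root of F. CPM are counts divided by the TMM-scaled library total, on the usual CPM scale. Bounds use a floor of 3 counts per library, averaged over the group, for groups at 0, and ratios of pooled counts with exact intervals serve for groups with few counts. The titles name 1 mouse per library, while a legend of the study mentions more mice per group than there are libraries, so pooling of mice is uncertain and p-values measure the spread between libraries. In a simulated DPI against vehicle comparison of 10895 genes, 175 of 190 genes changed by a log2 of 3 met the threshold, as did 379 unchanged genes (3.54%), and 127 passed the adjustment, with 8 unchanged genes. Smaller changes were not simulated, so how often changes such as that of Ptgs2 are found was not measured. The 3.54% of unchanged genes exceeds the 2.84% of all genes that met the threshold in the real comparison.

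The genes, lists and tests were chosen with earlier results of these data known. All 10 members were named, and other eicosanoid genes if they met the threshold in any comparison or were among the 5 most abundant of the list. Alternatives were other scaling, filters, DESeq2 1.42.0, fits of 2 groups, a replicate block, no Rn45s counts, thinning and leaving out libraries. Positions came from GENCODE M21 and sequences from RefSeq.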

Additional observations from a re-analysis of the deposited data

How the results depend on the processing

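The results are limited by 2 NC libraries, by totals that differ between libraries and by members near the floor. Other settings changed the following counts of genes at an unadjusted p under 0.05 and 2-fold, given for DPI against vehicle, DPI against NC and vehicle against NC where all 3 moved. With at least 10 counts in every sample they were 202, 527 and 726 of all genes. That filter left 6 members to test, of which 0 met the threshold for DPI against vehicle and 1 for vehicle against NC, and 3 and 3 genes of the pathway list did. With no filter, 602 genes met it for DPI against vehicle and 0 members for DPI against NC. Fits of 2 groups gave 1 member each for DPI against vehicle and vehicle against NC, and thinned counts 1 for DPI against vehicle. DESeq2 gave 1 member an adjusted p under 0.05 for vehicle against NC and 4 pathway genes at the threshold for DPI against NC, as did library size scaling (4), which shifted the all-gene median to 0.12, -0.17 and -0.26 on the log2 scale. With both NC 2 and DPI 1 left out, 2549 genes, 3 members and 8 pathway genes met it for DPI against NC, 1 member and 3 pathway genes for DPI against vehicle, and 2632 genes for vehicle against NC. Same-numbered mice did not deviate together (correlations -0.022 to 0.084), so the numbers do not pair libraries. The replicate block gave 1 member for vehicle against NC (Ptges), 2 for DPI against vehicle (Ptgs1 and Ptgs2, -1.24) and 0 for DPI against NC, so that Ptges was lost for DPI against vehicle (-3.51), Alox5 against NC with vehicle (-1.48) and DPI (-1.39), and Ptgs1 for vehicle against NC (-3.42, fitted). Under the block the sign turned for Ltc4s (0.58), Ptgs1 (0.57) and Tbxas1 (0.43) in DPI against NC and for Tbxas1 in DPI against vehicle (0.041) and vehicle against NC (0.39). The sign of Alox5ap in DPI against NC turned with RLE (-0.021), library size scaling (-0.18) and DESeq2 (-0.020), that of Lta4h with library size scaling (-0.043), and that of Tbxas1 in DPI against vehicle with thinning (0.011). Without NC 2 and DPI 1, signs turned in DPI against NC for Ltc4s (6.65), Pla2g4a (1.14), Ptgs1 (2.79) and Tbxas1 (2.80), and in vehicle against NC for Ltc4s (6.56), Lta4h (1.21), Pla2g4a (0.92), Tbxas1 (2.97) and Alox15 (0.48). These values of Ltc4s, and its upper values below, are fitted against 0 counts in NC 1 and are no measure of size.

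Leaving out 1 library at a time gave 187 to 543, 830 to 2626 and 1027 to 2634 genes, 1 to 3, 0 to 4 and 1 to 5 members and 0 to 7, 2 to 10 and 5 to 10 pathway genes at the threshold for DPI against vehicle, DPI against NC and vehicle against NC, and 0 members after adjustment. Where 1 NC library was left, it was assumed to vary like the other groups. Log2 fold changes that turned sign ranged, for vehicle against NC, over -3.73 to 0.48 (Alox15), -0.88 to 1.2 (Lta4h), -3.40 to 6.88 (Ltc4s), -1.92 to 0.91 (Pla2g4a) and -1.06 to 2.96 (Tbxas1). For DPI against vehicle the ranges were -0.086 to 0.80 (Alox5), -0.21 to 0.51 (Hpgds) and -0.36 to 0.14 (Tbxas1). For DPI against NC they were -0.16 to 0.26 (Alox5ap), -0.54 to 1.54 (Lta4h), -2.67 to 7.39 (Ltc4s), -1.49 to 1.34 (Pla2g4a), -1.44 to 3.94 (Ptgs1), -0.48 to 0.50 (Ptgs2) and -1.20 to 2.83 (Tbxas1). Apart from the reduced designs of the other settings themselves, the cause of these changes was not tested.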
